A study of Homo sapiens with 2 samples.

Results

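The data below follow 32 genes of programmed cell death in G401 cells, a human line derived from a renal rhabdoid tumor, after CRISPR targeting of the homeobox gene HOXB13. The genes were chosen by name and role, with earlier results of these data known. All 32 were found among 23456 gene symbols, each on 1 row of both tables. They form 7 classes: 5 anti-apoptotic BCL2 genes, 3 BAX-like effectors, 8 BH3-only genes, 3 genes of the apoptosome and of mitochondrial release, 5 caspases, 4 inhibitors of caspases, and 4 genes that encode death receptors and their adaptor. There were 2 libraries. One was from G401 cells labelled with guide 1 against HOXB13 (sg1-HOXB13), and the other from G401 cells labelled with a control guide (sg-control). Both were grown in the same medium, and the sources used here do not say whether the edited cells were 1 clone or a mixed population. Each group had 1 library, so the differences below carry no replicate error and no p-value. In such bulk RNA, fewer cells that express a gene and less RNA of it per cell cannot be told apart.

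In the mitochondrial route to apoptosis, BH3-only proteins relay stress signals to the BCL2 family. They occupy the anti-apoptotic members or activate BAX and BAK1 directly, which then open the outer mitochondrial membrane and let cytochrome c out to assemble the apoptosome with APAF1 and CASP9. In the other route, death receptors at the cell surface recruit FADD and CASP8, and both routes end in executioner caspases, which inhibitor of apoptosis proteins hold back. Rhabdoid tumors are known for loss of SMARCB1, a subunit of the SWI/SNF chromatin remodelling complex.

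HOXB13 itself had 4.50 FPKM (read fragments scaled by transcript length and by library size) in sg1-HOXB13 cells, against 14.6 FPKM in sg-control cells. SMARCB1 was near absent, with 0.0577 FPKM in sg1-HOXB13 cells and 0.113 in sg-control cells. Markers of other cell types were at or near 0. The 4 endothelial markers summed to 0.120 FPKM in sg1-HOXB13 cells and 0.0145 in sg-control cells, with CDH5 and KDR listed at 0 in both. The 6 kidney tubule markers summed to 0.0357 and 0.0529 FPKM in sg1-HOXB13 and sg-control cells, with UMOD listed at 0 in both. Of the 7 leukocyte markers, CD3E and MS4A1 were listed at 0 in both libraries and 4 others stayed under 1 FPKM. CD68, a lysosomal protein gene that many cell types express, had 111 FPKM in sg1-HOXB13 cells and 102 in sg-control cells.

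On the scale used for all ratios, none of the tested death genes differed by 2-fold between the libraries, although 11 of them differed by 1.5-fold or more. A gene was counted as tested when it reached 1 FPKM in either library. Ratios divide sg1-HOXB13 by sg-control after 1 was added to each FPKM and are given as log2, a scale that understates the ratio of low genes. Of the 32 genes 27 were tested. Of these, 0 were at least 2-fold higher, where 4.25% of all 11970 tested genes were, and 0 were at least 2-fold lower, where 4.51% were. At 1.5-fold, 4 were higher, against 11.8% of all tested genes, and 7 were lower, against 14.0%. With a pseudocount of 5 FPKM in place of 1, BAD was the 1 gene at least 1.5-fold higher, against 6.83% of all tested genes, and 6 were lower, against 7.13%. These folds are rules of size and not of significance. The ratio was above 0 for 11 of the tested death genes and below 0 for 16, or 59.3%, near the 54.4% of all tested genes. The median over the tested death genes was −0.28 (quartiles −0.60 and 0.20), and the median over all tested genes was −0.05 (quartiles −0.38 and 0.29). TNFRSF10B, BAK1 and HRK lay nearest to the 2-fold line, each with a log2 ratio between −0.97 and −0.96. By class, the median was −0.29 for anti-apoptotic genes, 0.21 for effectors, −0.41 for BH3-only genes, 0.18 for apoptosome and release genes, 0.04 for caspases, −0.75 for inhibitors of caspases and −0.29 for death receptors and adaptor. These medians rest on 2 to 7 tested genes each.

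**Figure D1:**
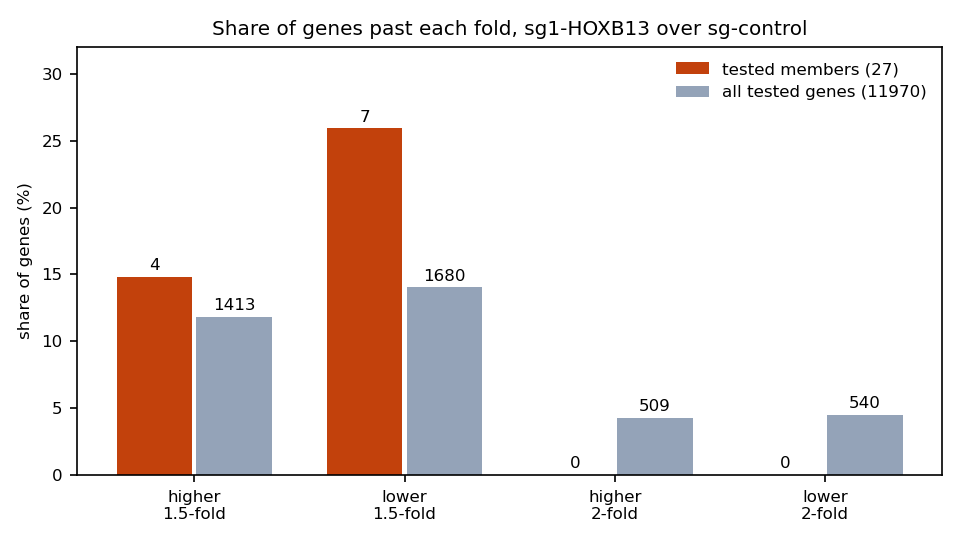
Share of genes, in percent, at least 1.5-fold or 2-fold higher or lower in sg1-HOXB13 cells on the log2(FPKM + 1) scale, for the 27 tested death genes (orange) and all 11970 tested genes (grey), with the number of genes above each bar. The death genes hold 4 higher and 7 lower genes at 1.5-fold and none at 2-fold.

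The anti-apoptotic genes were led in level by MCL1 and BCL2L1 in both libraries. MCL1, whose short-lived protein guards the mitochondria, had 67.8 FPKM in sg1-HOXB13 cells and 70.2 in sg-control cells, a log2 ratio of −0.05 whose sign changed between scalings. BCL2L1 had 38.0 FPKM in sg1-HOXB13 cells and 47.2 in sg-control cells. The gene gives rise to the protective BCL-XL and, by splicing, to the pro-apoptotic BCL-XS, which a value per gene cannot separate. BCL2 (chromosome 18, 60790579 to 60986613), the founding member of the family, had 7.67 FPKM in sg1-HOXB13 cells and 12.6 in sg-control cells (log2 ratio −0.65), and was the one anti-apoptotic gene past 1.5-fold. With a pseudocount of 5 FPKM its log2 ratio was −0.47, short of 1.5-fold. BCL2L2, which encodes BCL-W, had 12.5 FPKM in sg1-HOXB13 cells and 15.3 in sg-control cells. Its locus lies within that of the read-through gene BCL2L2-PABPN1 (66.8 FPKM in sg1-HOXB13 cells and 65.3 in sg-control cells), so the division of reads between them is uncertain. BCL2A1, known from blood cells, was listed at 0 in sg1-HOXB13 cells and had 0.122 FPKM in sg-control cells. All 4 tested genes of the class had ratios below 0, as did 54.4% of all tested genes. The summed level of the 5 genes of the class was 126 FPKM in sg1-HOXB13 cells, against 145 in sg-control cells.

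BAX and BAK1, which can each permeabilise the outer membrane, differed in opposite directions. BAX (chromosome 19, 49458117 to 49465055 in hg19, as for all gene positions here) had 146 FPKM in sg1-HOXB13 cells and 107 in sg-control cells (log2 ratio 0.45), and was the most abundant of the 32 genes in both. BAK1 (chromosome 6, 33540323 to 33548070) had 50.1 FPKM in sg1-HOXB13 cells and 98.4 in sg-control cells, a log2 ratio of −0.96, or 1.94-fold lower. Of all tested genes, 5.06% had a ratio as low or lower. The level of BAX was therefore 2.92 times that of BAK1 in sg1-HOXB13 cells and 1.09 times in sg-control cells. This quotient is taken within each library, so no scaling of a library changes it, and it was computed after the values were seen. BOK, a BAX-like protein found largely at the endoplasmic reticulum, had 10.6 FPKM in sg1-HOXB13 cells and 9.01 in sg-control cells. The 3 effectors summed to 207 FPKM in sg1-HOXB13 cells and 214 in sg-control cells, a ratio of 0.967, so the sum differed less than BAX or BAK1 did.

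Among the BH3-only genes, HRK and BBC3 were lower and BAD was higher at 1.5-fold. HRK (chromosome 12, 117298225 to 117319232), which encodes Harakiri, a protein that binds BCL2 and BCL-XL, had 3.49 FPKM in sg1-HOXB13 cells and 7.82 in sg-control cells. Its log2 ratio was −0.97, or 1.96-fold lower with the pseudocount, and the level was 2.24-fold lower without it. With a pseudocount of 0.1 FPKM in place of 1, HRK was the 1 death gene at least 2-fold lower, as were 7.09% of all tested genes. BBC3 (chromosome 19, 47724079 to 47736023), which encodes PUMA, a protein that binds every anti-apoptotic member of the family, had 15.2 FPKM in sg1-HOXB13 cells and 28.7 in sg-control cells (log2 ratio −0.87, 1.83-fold lower). BAD (chromosome 11, 64037300 to 64052176), which binds BCL2, BCL-XL and BCL-W and is held inactive by phosphorylation, had 49.7 FPKM in sg1-HOXB13 cells and 28.7 in sg-control cells (log2 ratio 0.77, 1.70-fold higher). BAD overlaps GPR137 at its highest coordinates, and GPR137 had 14.2 FPKM in sg1-HOXB13 cells and 10.5 in sg-control cells. BAD thus stood at 3.26 times the level of BBC3 in sg1-HOXB13 cells, and level with it in sg-control cells. That quotient was computed after the values were seen.

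The other BH3-only genes lay closer together. BIK, whose protein sits at the endoplasmic reticulum, had 3.34 FPKM in sg1-HOXB13 cells and 5.32 in sg-control cells. BMF, which is tied to the cytoskeleton until released, had 7.52 FPKM in sg1-HOXB13 cells and 10.3 in sg-control cells. Both ratios were negative and short of 1.5-fold (log2 −0.54 and −0.41). Without the pseudocount BIK was 1.59-fold lower, and with a pseudocount of 0.1 FPKM its log2 ratio was −0.66, so 8 members were at least 1.5-fold lower, as were 17.5% of all tested genes. BID, which CASP8 cleaves to link the receptor route to mitochondria, had 11.6 FPKM in sg1-HOXB13 cells and 10.3 in sg-control cells. BCL2L11, which encodes the strong activator BIM, had 2.32 FPKM in sg1-HOXB13 cells and 2.17 in sg-control cells. PMAIP1, which encodes NOXA, the partner of MCL1, was almost silent, with 0.0981 FPKM in sg1-HOXB13 cells and 0.0720 in sg-control cells. The 8 genes summed to 93.2 FPKM in sg1-HOXB13 cells and 93.4 in sg-control cells, so their sum differed less than HRK, BBC3 or BAD did.

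**Figure D2:**
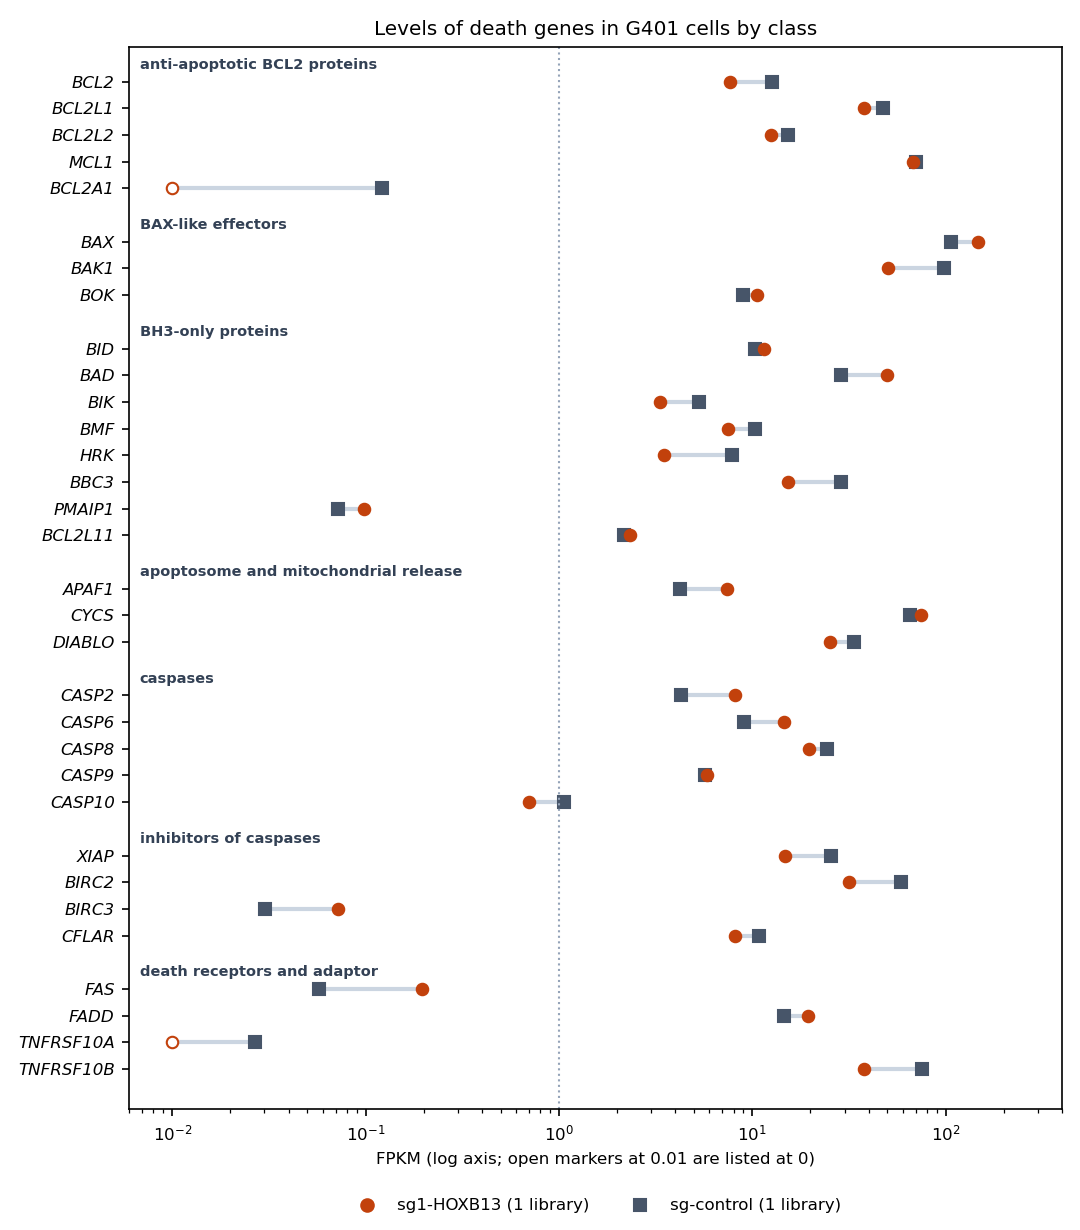
FPKM of the 32 death genes on a log axis, by class, in sg1-HOXB13 cells (orange circles) and sg-control cells (grey squares), with open markers for values listed at 0 and a dotted line at 1 FPKM. BAX reaches 146 and 107 FPKM in sg1-HOXB13 and sg-control cells, while PMAIP1, BIRC3, FAS, TNFRSF10A and BCL2A1 lie below 1 FPKM in both.

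The promoters of HRK, BBC3, BAX and BAK1 are shown as examples picked by hand, so they do not represent the death genes. HRK, BBC3 and BAK1 were each at least 1.5-fold lower, and BAX was the most abundant of the 32 genes. BCL2, XIAP and BIRC2 were also at least 1.5-fold lower, and their promoters were searched but are not shown. Sequences run from 250 bases before to 50 bases after the start site in RefSeq (GRCh38.p14, a later build than the hg19 of the FPKM tables), 5′ to 3′ on the strand of the gene. Capitals mark matches to 3 motifs, searched on both strands: TGATGNAA, a composite site of ATF4 and CHOP (the product of DDIT3), CACGTG, an E-box, and GTAAACA, a forkhead site. The motifs do not overlap in these sequences. HRK lies at chr12:116881392-116881691 on the minus strand, BBC3 at chr19:47232618-47232917 on the minus strand, BAX at chr19:48954625-48954924 on the plus strand, and BAK1 at chr6:33580227-33580526 on the minus strand.
HRK: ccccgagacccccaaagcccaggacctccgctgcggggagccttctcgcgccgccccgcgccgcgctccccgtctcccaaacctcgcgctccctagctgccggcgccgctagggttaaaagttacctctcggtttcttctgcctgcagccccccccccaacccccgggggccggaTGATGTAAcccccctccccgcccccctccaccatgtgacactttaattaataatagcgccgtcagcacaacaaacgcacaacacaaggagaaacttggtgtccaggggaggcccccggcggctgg
BBC3: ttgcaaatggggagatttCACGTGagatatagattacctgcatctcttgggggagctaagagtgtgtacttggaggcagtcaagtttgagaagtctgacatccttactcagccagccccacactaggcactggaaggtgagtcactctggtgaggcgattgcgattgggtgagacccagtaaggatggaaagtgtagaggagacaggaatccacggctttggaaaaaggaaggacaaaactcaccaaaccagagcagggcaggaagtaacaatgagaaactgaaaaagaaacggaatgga
BAX: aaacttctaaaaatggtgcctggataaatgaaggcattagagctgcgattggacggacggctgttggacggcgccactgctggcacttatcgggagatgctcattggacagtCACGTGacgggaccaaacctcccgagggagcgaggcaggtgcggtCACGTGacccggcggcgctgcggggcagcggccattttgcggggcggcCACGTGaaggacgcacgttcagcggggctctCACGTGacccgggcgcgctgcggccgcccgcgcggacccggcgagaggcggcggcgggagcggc
BAK1: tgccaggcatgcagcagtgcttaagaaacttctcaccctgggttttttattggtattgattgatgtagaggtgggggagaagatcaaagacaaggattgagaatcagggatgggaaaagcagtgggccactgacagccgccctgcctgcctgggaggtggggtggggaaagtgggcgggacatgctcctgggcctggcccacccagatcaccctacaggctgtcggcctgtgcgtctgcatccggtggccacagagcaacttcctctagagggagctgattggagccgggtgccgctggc

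The HRK promoter holds 1 composite site, TGATGTAA, whose first base lies 75 bases before the start site. The BAX promoter holds 4 E-boxes, which begin 138, 93, 45 and 14 bases before the start site, and the BBC3 promoter holds 1, which begins 232 bases before it. BAK1 has none of the 3 motifs in this window. RefSeq promoters were found for 26 of the 32 genes, 48 promoters in all, and TNFRSF10B, MCL1, BIK, CASP10, TNFRSF10A and BCL2L2 were not searched. The composite site was present in 2 of these (HRK and BCL2A1), and in 3.62% of 35116 promoters of all genes. The E-box was present in 5, of BAX, BBC3, BID (2 promoters that overlap) and DIABLO, and in 7.26% of all promoters. The forkhead site was present in 1, of BCL2L11, and in 3.42% of all promoters. A match describes the letters in the window and not binding.

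Downstream of the mitochondria, APAF1 was higher at 1.5-fold, whereas CYCS and DIABLO, the genes of both released factors, had ratios of opposite sign short of 1.5-fold. APAF1 (chromosome 12, 99039078 to 99129211), the scaffold of the apoptosome, had 7.38 FPKM in sg1-HOXB13 cells and 4.25 in sg-control cells (log2 ratio 0.68, 1.60-fold higher). At its highest coordinates the locus overlaps that of ANKS1B, which had 2.62 FPKM in sg1-HOXB13 cells and 1.78 in sg-control cells. CYCS, the gene of cytochrome c, which has processed pseudogenes that may share its reads, had 74.2 FPKM in sg1-HOXB13 cells and 65.4 in sg-control cells. DIABLO, which encodes SMAC, the protein that displaces inhibitors from caspases, had 25.3 FPKM in sg1-HOXB13 cells and 33.7 in sg-control cells (log2 ratio −0.40).

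The caspases divided, with CASP2 and CASP6 higher. CASP2 (chromosome 7, 142985308 to 143004789), an initiator linked to DNA damage and mitotic faults, had 8.16 FPKM in sg1-HOXB13 cells and 4.26 in sg-control cells, the highest ratio of the 27 tested genes (log2 0.80, 1.74-fold higher). With a pseudocount of 5 FPKM its log2 ratio was 0.51, below the 0.70 of BAD. CASP6 (chromosome 4, 110609785 to 110624629), an executioner known to cut lamin A, had 14.6 FPKM in sg1-HOXB13 cells and 9.05 in sg-control cells (log2 ratio 0.63, 1.55-fold higher). CASP9, the initiator on the apoptosome, had 5.84 FPKM in sg1-HOXB13 cells and 5.67 in sg-control cells, so the apoptosome's scaffold and its caspase did not share a ratio.

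The initiators of the receptor route lie side by side on chromosome 2 with CFLAR, which encodes the FLIP proteins that block CASP8. CASP8 had 19.6 FPKM in sg1-HOXB13 cells and 24.4 in sg-control cells, and CASP10 had 0.698 and 1.07 FPKM in sg1-HOXB13 and sg-control cells. CASP10 was tested only because of its value in sg-control cells. CFLAR had 8.17 FPKM in sg1-HOXB13 cells and 10.9 in sg-control cells. CFLAR spans 201980877 to 202037411, CASP10 202047621 to 202094129 and CASP8 202098166 to 202152434. The log2 ratios were −0.37 for CFLAR, −0.28 for CASP10 and −0.31 for CASP8. That of CASP10 was set largely by the pseudocount, since without it its level was 1.53-fold lower, against 1.33-fold for CFLAR and 1.25-fold for CASP8.

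The inhibitor of apoptosis genes BIRC2 and XIAP were both lower. XIAP (chromosome X, 122993662 to 123047829), which binds and blocks caspases directly, had 14.8 FPKM in sg1-HOXB13 cells and 25.6 in sg-control cells (log2 ratio −0.75, 1.68-fold lower). BIRC2 (chromosome 11, 102217913 to 102249401), which encodes the ubiquitin ligase cIAP1, had 31.7 FPKM in sg1-HOXB13 cells and 59.1 in sg-control cells (log2 ratio −0.88, 1.84-fold lower). BIRC3, its neighbour on chromosome 11, which encodes cIAP2, had 0.0718 FPKM in sg1-HOXB13 cells and 0.0301 in sg-control cells. With CFLAR, the 3 tested genes of the class had the lowest median of the 7 classes, and the class summed to 54.8 FPKM in sg1-HOXB13 cells and 95.6 in sg-control cells. APAF1 stood at 0.498 times the level of XIAP in sg1-HOXB13 cells and at 0.166 times in sg-control cells, a quotient that was also computed after the values were seen.

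TNFRSF10B was the one death receptor of the list expressed at 1 FPKM or more. TNFRSF10B (chromosome 8, 22877648 to 22926700), which encodes the TRAIL receptor DR5, had 37.9 FPKM in sg1-HOXB13 cells and 75.4 in sg-control cells (log2 ratio −0.97, 1.96-fold lower), and 4.90% of all tested genes had a ratio as low or lower. Its locus overlaps RHOBTB2 at its lowest coordinates, and RHOBTB2 had 8.76 FPKM in sg1-HOXB13 cells and 4.25 in sg-control cells, the opposite direction. TNFRSF10A, which encodes the other TRAIL death receptor DR4, was listed at 0 in sg1-HOXB13 cells and had 0.0269 FPKM in sg-control cells. FAS, the receptor of the FAS ligand, had 0.195 FPKM in sg1-HOXB13 cells and 0.0574 in sg-control cells. FADD, the adaptor of these receptors, had 19.4 FPKM in sg1-HOXB13 cells and 14.6 in sg-control cells (log2 ratio 0.39), a direction opposite to that of the receptor.

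Of the 5 genes below 1 FPKM in both libraries, 2 gave values that could be read as whole reads. The value of 1 read differed between the libraries by a factor of 1.02, the ratio shared by 309 genes below 0.3 FPKM in both libraries. With that factor removed, PMAIP1 stood at 4 reads in sg1-HOXB13 cells to 3 in sg-control cells, and FAS at 10 reads to 3, or the same multiples of these. The quotients for BIRC3 gave no such pair up to 12 reads, and TNFRSF10A and BCL2A1 were listed at 0 in 1 library. Levels this low do not allow a statement on a difference in these 5 genes.

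**Figure D3:**
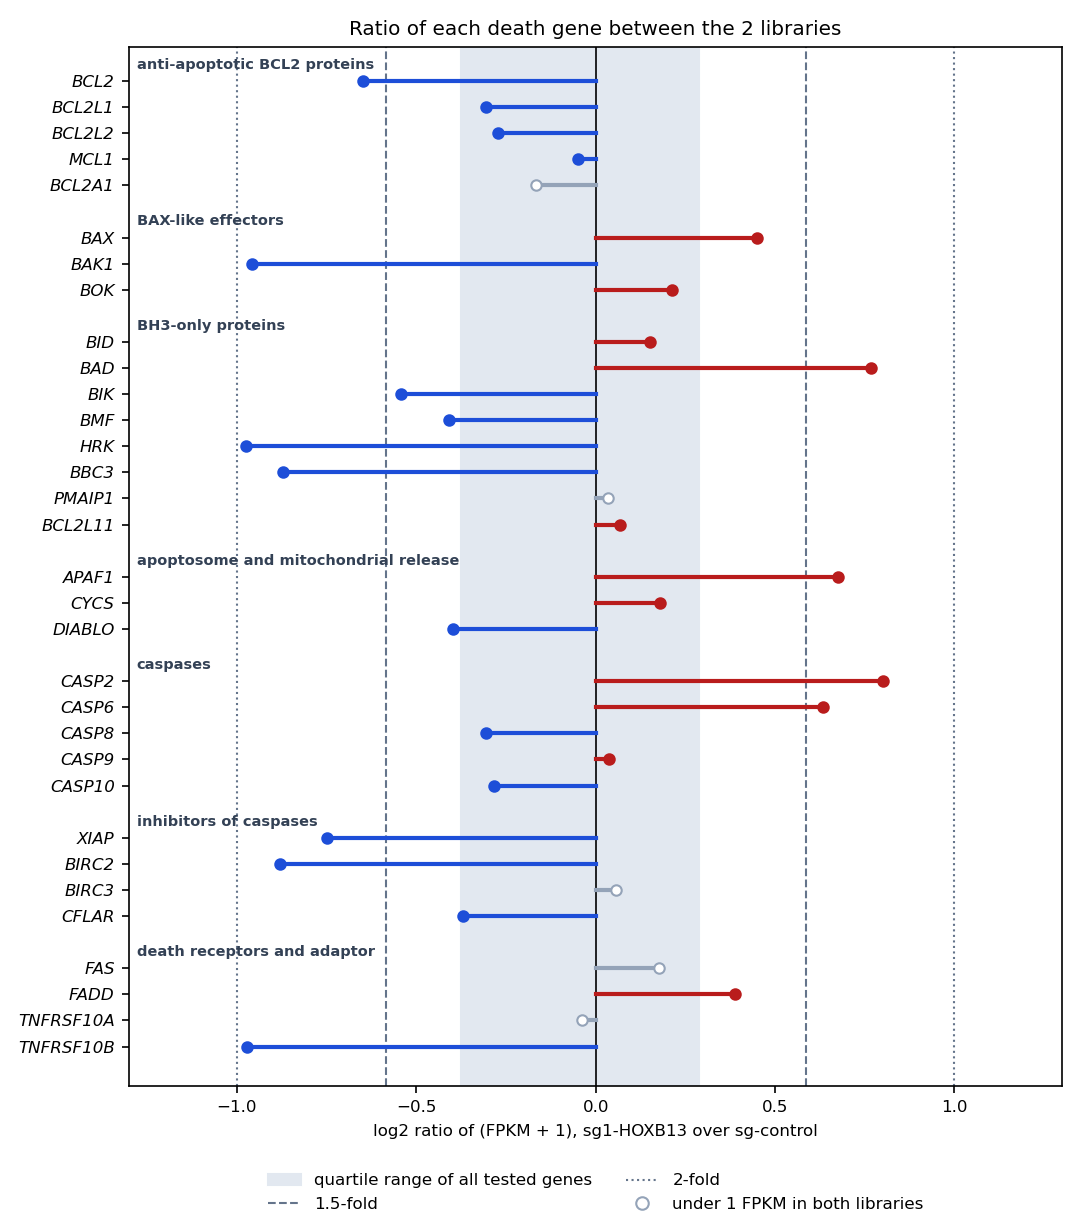
Log2 ratio of (FPKM + 1) in sg1-HOXB13 cells over sg-control cells for each of the 32 death genes by class, higher in red and lower in blue, with grey open markers for genes under 1 FPKM in both libraries, a grey band for the quartile range of all tested genes, and lines at 1.5-fold (dashed) and 2-fold (dotted). TNFRSF10B, HRK and BAK1 come closest to 2-fold, and BAD, CASP2, APAF1 and CASP6 pass 1.5-fold on the higher side.

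Other genes of these routes were taken from lists chosen by role, also with earlier results of these data known. CASP8AP2, which encodes a partner of CASP8, had 7.49 FPKM in sg1-HOXB13 cells and 5.35 in sg-control cells (log2 ratio 0.42), and was the 1 tested gene of 5 in a list of other caspase genes. The inflammatory caspases CASP1, CASP4 and CASP5 were listed at 0 in both libraries (named outside the rule, after their values were seen). Among 4 tested inhibitor of apoptosis genes outside the 32 none passed 2-fold or 1.5-fold, where 25.8% of all tested genes passed 1.5-fold. The median log2 ratio of the 4 was 0.16, with 2 ratios above 0 and 2 below. BIRC6 had the largest ratio of the 4 (log2 0.40), with 10.0 FPKM in sg1-HOXB13 cells and 7.33 in sg-control cells. BIRC5, which encodes survivin and acts in mitosis, had 47.0 FPKM in sg1-HOXB13 cells and 35.8 in sg-control cells, and BIRC7, which encodes livin, had 29.7 and 31.1 FPKM in sg1-HOXB13 and sg-control cells.

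The remaining receptors and adaptors held 10 tested genes of 18, and their median log2 ratio was −0.40. None of the 10 passed 2-fold, where 4.25% of all tested genes were higher and 4.51% lower. TNFRSF10D, which encodes a TRAIL decoy receptor without a working death domain, had 30.4 FPKM in sg1-HOXB13 cells and 50.1 in sg-control cells. Death receptor and decoy were thus both lower, and TNFRSF10B stood at 1.25 times TNFRSF10D in sg1-HOXB13 cells and 1.51 times in sg-control cells. This quotient too was computed after the values were seen. Other quotients computed were MCL1 over BCL2L1 (1.79 in sg1-HOXB13 cells, 1.49 in sg-control cells) and XIAP over DIABLO (0.586 and 0.761, in the same order). TNFRSF10B over CFLAR was 4.64 in sg1-HOXB13 cells and 6.95 in sg-control cells. TNFRSF12A, the receptor of TWEAK, had 49.9 FPKM in sg1-HOXB13 cells and 92.5 in sg-control cells. The ligand gene TNFSF10, which encodes TRAIL, was listed at 0 in both libraries (named outside the rule, after its values were seen). FAIM, an inhibitor of FAS signalling, had 20.3 FPKM in sg1-HOXB13 cells and 35.0 in sg-control cells, and the adaptor TRAF2 had 9.18 and 5.54 FPKM in sg1-HOXB13 and sg-control cells.

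Around the BCL2 family, the tested genes of 3 further lists showed no 2-fold difference. Of all tested genes, 4.25% were at least 2-fold higher and 4.51% lower. Other BCL2-related genes had 7 of 9 tested ratios below 0, where 54.4% of all tested genes were, and a median of −0.43. Of these 9 genes the mitophagy receptor gene BNIP3L had 29.5 FPKM in sg1-HOXB13 cells and 44.6 in sg-control cells. MOAP1, a partner of BAX, had 14.6 and 23.2 FPKM in sg1-HOXB13 and sg-control cells. Outer membrane channel and dynamics genes had a median of 0.09 over 10 tested, and the channel gene VDAC1 had 195 FPKM in sg1-HOXB13 cells and 126 in sg-control cells. Genes that bind or turn over MCL1 and BH3-only proteins had a median of 0.06 over 8 tested. YWHAZ, a 14-3-3 gene whose protein family holds phosphorylated BAD in the cytosol, had 465 FPKM in sg1-HOXB13 cells and 303 in sg-control cells.

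Some genes in a list of transcription regulators of death genes differed by more than any death gene did, as did some genes of other lists. Past 2-fold, 9 tested transcription regulators held 5 lower genes and 1 higher, where 4.51% of all tested genes were lower and 4.25% higher. Their median log2 ratio was −1.07, and −0.61 with a pseudocount of 5 FPKM or with no filter on low values. The higher regulator was E2F1, with a log2 ratio of 1.01, or 2.01-fold higher in sg1-HOXB13 cells. E2F1 was named outside the rule, after its values were seen. DDIT3, which encodes CHOP, a stress factor known to activate TNFRSF10B, had 9.25 FPKM in sg1-HOXB13 cells and 142 in sg-control cells (log2 ratio −3.81). Its partner CEBPB had 7.03 FPKM in sg1-HOXB13 cells and 56.5 in sg-control cells, and ATF4, which acts above CHOP, had 158 and 416 FPKM in sg1-HOXB13 and sg-control cells. The 12 genes of the integrated stress response list were all tested, and all 12 were lower by 2-fold or more (median −2.63). ATF4 and DDIT3 stand in both lists, so 2 of the 5 lower regulators are counted again here. The stress response list was chosen with its behavior in these libraries already known, so its count is no independent support. The list of regulators was also written with earlier results of these data known. The 1.96-fold lower TNFRSF10B and 1.83-fold lower BBC3 stood beside a 14.0-fold lower DDIT3 on the same scale, whereas BCL2L11, another known target of CHOP, had a log2 ratio of 0.07. Whether CHOP or another listed regulator had a part in any of these values was not tested.

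The 18 p53 targets outside the death genes divided evenly, with 9 ratios above 0 and 9 below, where 54.4% of all tested genes were below. Their median was 0.01, and 1 gene was past 2-fold in each direction, where 4.25% of all tested genes were higher and 4.51% lower. PERP, a p53 target of cell junctions, had 8.32 FPKM in sg1-HOXB13 cells and 1.45 in sg-control cells, GADD45A, a stress sensor, had 24.5 and 57.0 FPKM in sg1-HOXB13 and sg-control cells, and the cell cycle inhibitor CDKN1A had 53.3 FPKM in sg1-HOXB13 cells and 31.0 in sg-control cells. Some death genes known as p53 targets, picked here after their values were seen and not a complete set, divided too. BAX and APAF1 had ratios above 0 (log2 0.45 and 0.68), BBC3 and TNFRSF10B below 0 (−0.87 and −0.97), and PMAIP1 and FAS were near absent. MYC, known to bind E-boxes and also named after its values were seen, had 53.1 FPKM in sg1-HOXB13 cells and 112 in sg-control cells. Whether MYC had a part in the values of any death gene was not tested.

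**Figure D4:**
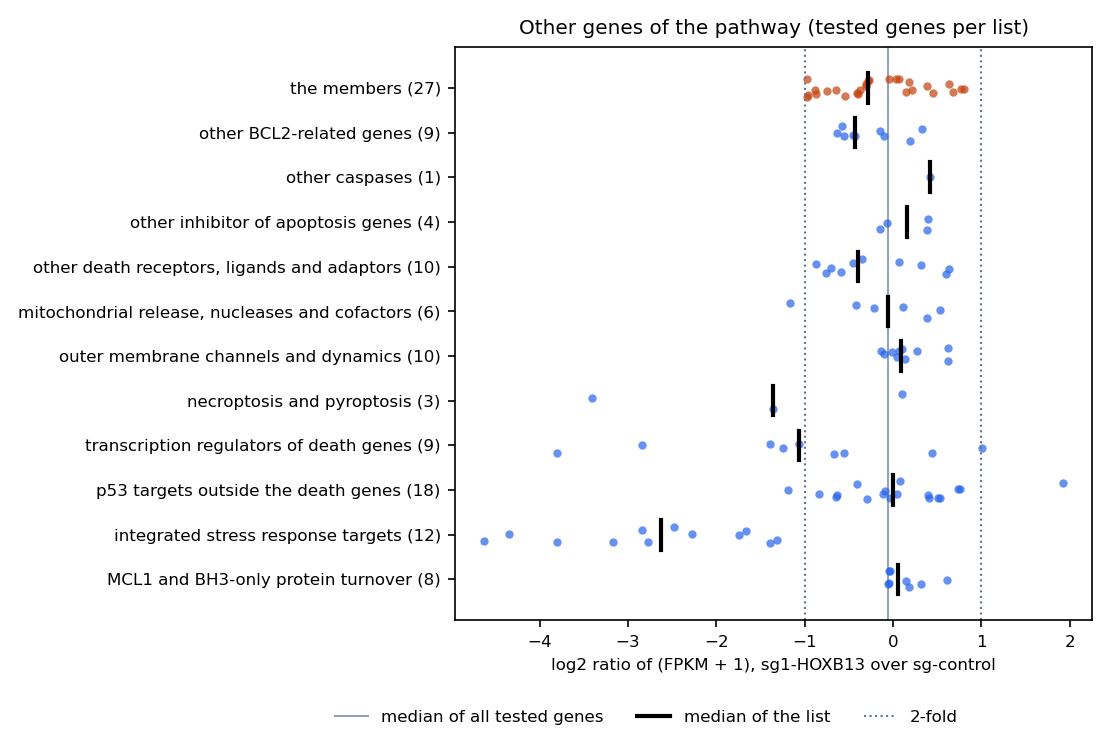
Log2 ratio of (FPKM + 1), sg1-HOXB13 over sg-control cells, for the 27 tested death genes (orange) and the tested genes of 11 further lists (blue), with the number tested beside each name, black bars at list medians, a grey line at the median of all tested genes and dotted lines at 2-fold; ATF4 and DDIT3 appear in 2 lists. The death genes lie between −0.97 and 0.80, whereas the 12 integrated stress response genes lie between −4.62 and −1.31.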

How the data were processed

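RNA sequencing of 2 libraries was used, 1 per group, grouped by the sample titles. Per the labels, total RNA was depleted of ribosomal RNA before an Ion library was made. The authors deposited 1 table of FPKM per library, without read counts. The submitters' processing notes name Bowtie, TopHat, Cufflinks and hg19, while their versions and the strand mode are not given in the sources available. Since strand is unknown, reads of a gene and an overlapping gene cannot be told apart. FPKM values of 0.001 in the deposited tables were read as 0, failed estimates were left out, and rows sharing a symbol were summed, which left 23452 symbols with values. A gene was tested at 1 FPKM or more in either library, with a pseudocount of 1 FPKM. Total read numbers were not given, so no counting interval was computed, and samples were not compared by a test. The ratio rule was run on simulated data made by planting folds in the sg-control library. Recovery of these folds was largely fixed in advance, so it checks the arithmetic and not the differences reported here. Named genes were HOXB13, the 32 members and genes of the further lists. A rule marked in each list the tested genes, up to 4, that had the largest absolute ratios. Not all marked genes are named (VDAC3, TRIB3 and CHAC1 are among those left out). Some genes outside the rule are named. The members and lists were chosen with earlier results of these data known. The listed genes SEPT4 and MARCH5 were not matched, and some genes of the further lists are not reported here and were left out of their counts and medians. Alternatives covered pseudocount, filter, scaling and the fold. Promoters came from RefSeq (GRCh38.p14). Python 3.11.15, numpy 2.4.6, pandas 2.3.3 and matplotlib 3.10.9 were used.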

Additional observations from a re-analysis of the deposited data

How the results depend on the processing

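No death gene changed direction at 1.5-fold or more under any alternative run. Of 242 recomputed member ratios, 238 stayed within 0.25 (log2) of the reported value. Most of this was fixed in advance and is no sign of stability. The filters and the choice of row cannot alter a member's ratio, a pseudocount cannot change its sign, and the scalings shift all ratios by a small amount. The 4 ratios that moved did so with a changed pseudocount. HRK became the 1 member at least 2-fold lower with a pseudocount of 0.1 FPKM, where 7.09% of all tested genes were, CASP10 stood at −0.55, and 8 members were 1.5-fold lower, BIK among them. With a pseudocount of 5 FPKM, 1 member in place of 4 was 1.5-fold higher and 6 in place of 7 lower, without BCL2, and the medians were −0.69 for necroptosis and pyroptosis genes, −0.61 for transcription regulators and −2.22 for stress response targets. HRK, APAF1 and CASP2 then stood at −0.59, 0.42 and 0.51. With the fold set at 1.5, 4 members were higher and 7 lower. With no filter on low values the medians were 0.069 for death receptors and adaptor, −0.13 for other BCL2-related genes, −0.61 for transcription regulators, 0 for other caspases, 0 for other receptors and adaptors, and −0.068 for necroptosis and pyroptosis genes, since genes near 0 entered. With 1 FPKM required in both libraries, the caspase median was 0.34 without CASP10, and that of necroptosis and pyroptosis genes was −0.63 without PYCARD. Their median was −1.76 with a pseudocount of 0.1 FPKM. The 4 scalings moved the median of all tested genes by at most 0.06 (log2). MCL1 was the only tested member whose sign they changed, between −0.07 and 0.02. No paired analysis was possible because each group had 1 library. The share of all tested genes past 1.5-fold was 31.3% at a mean below 5 FPKM and 23.2% from 5 to 20 FPKM.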

Other observations

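Genes of inflammatory and other forms of cell death lay outside the routes described above. PYCARD, which encodes ASC, the adaptor that inflammasomes use to recruit CASP1, had 0.298 FPKM in sg1-HOXB13 cells and 12.7 in sg-control cells (log2 ratio −3.40, 10.6-fold lower). DFNA5, which encodes gasdermin E, a pore-forming protein, had 1.62 FPKM in sg1-HOXB13 cells and 5.70 in sg-control cells (log2 ratio −1.36, 2.56-fold lower). Of the 9 genes of that list 3 were tested, 2 of them at least 2-fold lower and none higher (median log2 ratio −1.36). Of all tested genes, 4.51% were at least 2-fold lower and 4.25% higher. PYCARD was tested only because of its value in sg-control cells, and the median was −0.63 without it and −0.068 with no filter on low values. MLKL, the executor of necroptosis, was listed at 0 in both libraries, and RIPK3 had 0.0247 FPKM in sg1-HOXB13 cells and was listed at 0 in sg-control cells, so the tested genes left these 2 out. Both were named after their values were seen. AIFM2, which protects membranes from lipid peroxidation, had 0.433 FPKM in sg1-HOXB13 cells and 2.20 in sg-control cells (log2 ratio −1.16). Among 6 tested genes of mitochondrial release and nucleases it alone passed 2-fold, where 4.51% of all tested genes were 2-fold lower. It too was tested only because of its value in sg-control cells, and without it the median of that list was 0.11, in place of −0.05. DFFB, the caspase-activated nuclease, had 3.05 FPKM in sg1-HOXB13 cells and 1.80 in sg-control cells, while DFFA, its inhibitor, had 40.0 and 53.8 FPKM in sg1-HOXB13 and sg-control cells.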
